A study of Mus musculus with 4 samples.

Results

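BMP, Nodal and TGF-beta signalling genes were examined in E14 cells, a mouse embryonic stem cell (mESC) line, with and without Npac, which the files list as Glyr1. The set held 42 genes picked by their symbols from the 56748 genes of the count table, namely 5 BMP ligands, 6 Nodal, activin and TGF-beta ligands, 2 processing enzymes, 10 receptors or co-receptors, 7 Smads, 6 antagonists and 6 targets. WT1 and WT2 are libraries of wild-type cells, and KO1 and KO2 are libraries of Npac knockout (Npac KO) cells. The KO cells were made with CRISPR/Cas9 plasmids, puromycin selection and picking of colonies, and each KO line has 1 library. All cells grew without feeders on gelatin in medium with serum and LIF, the cytokine that holds mESCs in self-renewal, and serum can itself carry ligands of this family. Nothing says that the WT libraries came from separate cultures, so p-values measure only the spread between these libraries, which may be technical.

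The ligands of this family bind pairs of serine/threonine kinase receptors on the cell surface. BMP receptors phosphorylate Smad1 and Smad5, whereas the receptors for Nodal, activin and TGF-beta phosphorylate Smad2 and Smad3, and both classes of Smad enter the nucleus with Smad4. In serum and LIF, BMP input keeps Id genes expressed and restrains neural differentiation, and Nodal input sustains Lefty1, Lefty2 and Smad7, which feed back on the same pathway. Transcript levels do not report Smad phosphorylation, which was not measured here.

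Library totals lay between 15850805 and 16965120 reads, and 18157 genes passed edgeR's filter on low counts. Glyr1 had 3961 and 3115 reads in WT1 and WT2 against 744 and 888 in KO1 and KO2, so both KO libraries were lower but still held Glyr1 reads (log2 fold change -2.14, standard error (SE) 0.23, adjusted p = 0.00174 in the quasi-likelihood test of edgeR, adjusted by the Benjamini-Hochberg method, which is the source of every adjusted p given here unless another tool is named). The summed level of 10 mESC markers, in counts scaled to sequencing depth (CPM), was 6750 and 5239 in WT1 and WT2 against 5057 and 4682 in KO1 and KO2, with 1 of the 10, Zfp42, down-regulated. The 6 trophoblast markers summed to 79.3 and 74.2 CPM in WT1 and WT2 and to 211 and 185 CPM in KO1 and KO2. Of the 4 tested, 1 was up-regulated, Tfap2c, which alone was at 50.7, 31.7, 155 and 134 CPM in WT1, WT2, KO1 and KO2. Krt8 was at 27.1, 38.6, 50.2 and 44.1 CPM and did not pass, and the other trophoblast markers were at or below 4.39 CPM in every library. The defining marker Cdx2 had 0, 3, 0 and 16 reads in WT1, WT2, KO1 and KO2. The 7 primitive endoderm markers summed to between 20.4 and 32.5 CPM, the 7 fibroblast markers to between 35.8 and 59.1 CPM, the 5 mesoderm markers to between 3.08 and 9.76 CPM and the 5 neural markers to between 80.4 and 102 CPM over all libraries. Among these, Sox7 (primitive endoderm) and Sox1 (neural) were down-regulated, Col1a1 (fibroblast) and Neurod1 (neural) were up-regulated, and 4 of the 7 fibroblast markers had at most 3 reads in every library. These are bulk samples, in which fewer cells of a type and less RNA per cell cannot be told apart, and the part of these marker shifts in the results below was not tested.

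In Npac KO cells the ligands Bmp4 and Inhbb, the receptor Tgfbr2 and the inhibitory Smad7 fell the most among the well-measured members, and the Nodal ligand and the target Id3 rose. Of the 42 genes, 39 passed the filter, 2 were up-regulated and 9 were down-regulated with an adjusted p below 0.05 and a change of more than 1.5-fold. The 28 others did not pass. Among all genes tested 11.0% were up-regulated and 10.7% were down-regulated, against 5.13% and 23.1% of the 39 members. In either direction the shares were 21.7% of all genes and 28.2% of the members. The median log2 fold change was -0.36 over the 39 members and 0.0015 over all genes tested. KO and WT libraries did not overlap for 25 of the 39 members, or 64.1%, and for 65.7% of all genes tested, and the KO libraries lay below the WT libraries for 18 members and above them for 7, against 32.5% and 33.2% of all genes tested. The genes that were not tested are Bmp2, Inhba and Grem1. Bmp2 had between 7 and 14 reads per library, Grem1 between 1 and 4, and Inhba 0 in 3 libraries and 2 in KO1. These genes were near the limit of detection at this depth.

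**Figure D1:**
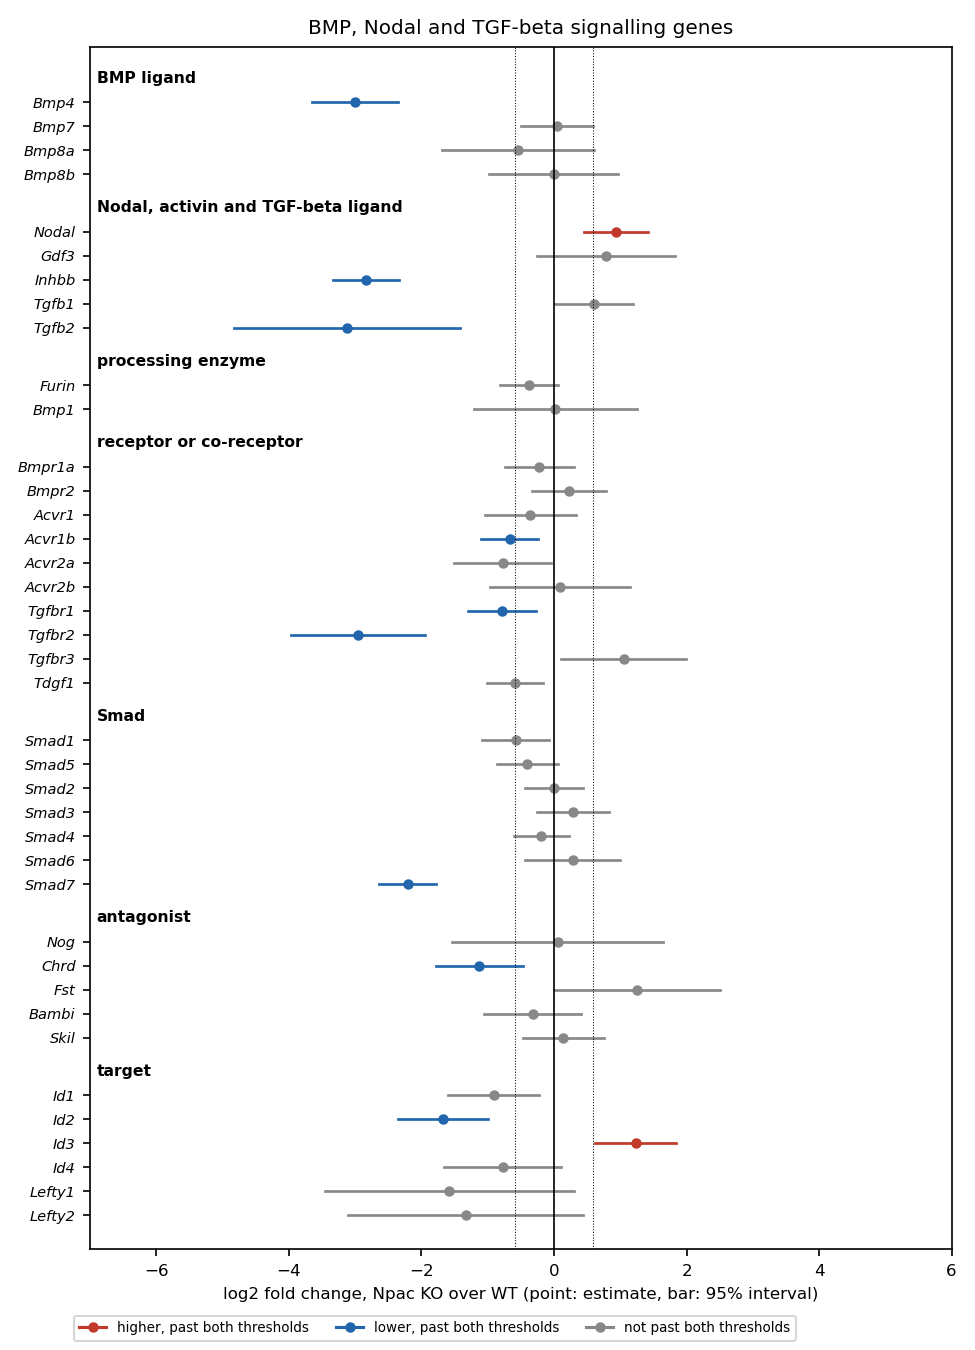
Log2 fold change of Npac KO over WT for the 39 tested members, grouped by role; each point is the estimate from edgeR, each bar its 95% interval, and the dotted lines mark a 1.5-fold change. The intervals of Bmp4, Inhbb, Tgfbr2 and Smad7 end at -2.35, -2.34, -1.94 and -1.78 on their right side, well below the left dotted line, the point of Tgfb2 rests on 3 KO reads, and Nodal and Id3 are the members coloured as higher.

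Bmp4 was the down-regulated member among the 4 BMP ligands tested. It acts through Smad1 and Smad5 to induce Id genes. Bmp4 (ENSMUSG00000021835, chromosome 14 from 46620977 to 46628126, minus strand, in the coordinates of the authors' files) stood at 22.5 and 15.3 FPKM (fragments per kilobase of gene length, scaled to sequencing depth) in WT1 and WT2 and at 2.25 and 2.42 in KO1 and KO2. Both KO libraries lay far below both WT libraries, and the gap between the WT libraries was larger than that between the KO libraries. The mean fell from 18.9 ± 5.12 FPKM (SD, n = 2) to 2.34 ± 0.121 FPKM (SD, n = 2), which is 8.03-fold lower (log2 fold change -3.01, SE 0.28, adjusted p = 0.0011). The call held with each library left out, with log2 fold changes between -3.26 and -2.73. Bmp4 overlaps the antisense gene Gm15222, which had 119, 101, 22 and 10 reads in WT1, WT2, KO1 and KO2, and because the use of strand in counting is not given, reads of the pair cannot be told apart; Bmp4 itself had 778, 605, 79 and 96.

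The other BMP ligands showed no such gap. Bmp7, which often pairs with other BMPs, had 4.40, 5.41, 4.98 and 5.11 FPKM in WT1, WT2, KO1 and KO2, and its KO values lay inside the WT range (log2 fold change 0.04, 95% interval -0.50 to 0.59). That interval does not reach the size of the Bmp4 change. Bmp8a and Bmp8b, a pair of related ligands known from germ cells, were between 0.613 and 1.87 FPKM in every library, with overlapping groups and log2 fold changes of -0.55 (95% interval -1.70 to 0.60) and -0.0033 (95% interval -0.98 to 0.97). The low counts leave wide intervals for both, and Bmp8b overlaps the gene Ppie.

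Among the Nodal, activin and TGF-beta ligands, Nodal rose while Inhbb and Tgfb2 fell. Nodal, the ligand of mesendoderm induction and of the Smad2 and Smad3 branch in mESCs, lies on chromosome 10 from 61253751 to 61261117, plus strand (ENSMUSG00000037171). It was at 20.2 and 15.4 FPKM in WT1 and WT2 against 32.6 and 35.1 in KO1 and KO2. The KO values exceeded those of either WT library, with a rise from a mean of 17.8 ± 3.39 to 33.9 ± 1.76 FPKM (SD, n = 2 each), and the log2 fold change was 0.93 (SE 0.21, adjusted p = 0.0187). With KO1 left out the value was 0.98, and with KO2 left out it was 0.87.

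Inhbb encodes the beta-B subunit shared by activin B and inhibin B. Inhbb (ENSMUSG00000037035, chromosome 1 from 119343195 to 119349978, minus strand) had 14.1 and 13.4 FPKM in WT1 and WT2 against 1.79 and 2.03 in KO1 and KO2. The libraries of each genotype lay close together, and the genotypes were far apart. The log2 fold change was -2.84 (SE 0.22, adjusted p = 0.000526), 7.16-fold lower, and stayed between -2.94 and -2.76 with each library left out. Its partner Inhba was near 0, as given above, so of these 2 activin subunits beta-B was the one with more than 2 reads in any library.

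Tgfb2 was a low-count gene. It had 13 and 15 reads in WT1 and WT2 against 1 and 2 in KO1 and KO2, which put the KO group at or under the floor of 3 reads per library. Summed over libraries, 28 WT reads stood against 3 KO reads, a depth-adjusted ratio of 9.36 with an exact 95% interval (Clopper-Pearson, counting error only) from 2.89 to 48.1. The adjusted p was 0.0227, and it rose to 0.122 in DESeq2. The log2 fold change was -2.82 without KO1 and -3.58 without KO2, and on FPKM with a pseudocount of 1 the log2 difference was -0.18. Tgfb1, which encodes the most widely expressed TGF-beta, had 2.81, 3.74, 5.48 and 4.49 FPKM in WT1, WT2, KO1 and KO2. Its KO libraries were both above the WT libraries, but the log2 fold change of 0.61 (95% interval 0.02 to 1.20) had an adjusted p of 0.123. The estimate was 0.39 without WT1 and 0.83 without WT2. Gdf3, a Nodal-related ligand of pluripotent cells, was split within each genotype, at 21.0 and 7.45 FPKM in WT1 and WT2 against 30.2 and 18.8 in KO1 and KO2. Its groups overlapped and its log2 fold change was 0.79 (95% interval -0.25 to 1.83), 1.69 without WT1 and 0.22 without WT2.

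**Figure D2:**
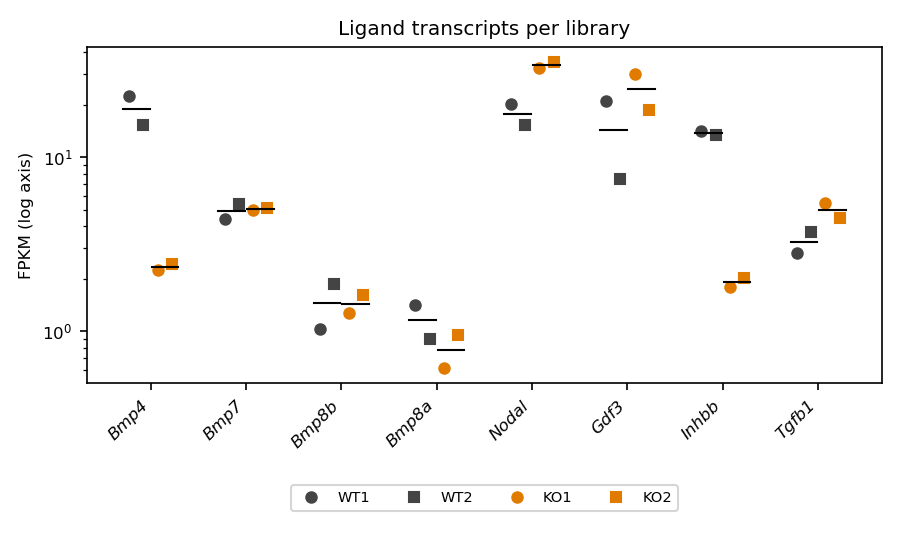
FPKM (log axis) of 8 ligand genes in WT1, WT2, KO1 and KO2; each symbol is 1 library and each line the mean of a genotype. Bmp4 and Inhbb were at or above 13.4 FPKM in both WT libraries and at or below 2.42 FPKM in both KO libraries, Nodal was higher in both KO libraries, and Gdf3 overlapped.

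The 250 bases before the annotated start of Bmp4 and Nodal are shown because these ligands moved in opposite directions. Direction did not follow the branch, since Inhbb (log2 fold change -2.84) and Tgfb2 (-3.13), grouped with Nodal, fell as Bmp4 did. The sequences are from RefSeq on GRCm38.p6, each 5′ to 3′ on the strand of its gene, Bmp4 from chr14:46390670-46390919 (minus strand) and Nodal from chr10:61417722-61417971 (plus strand). They were searched on both strands for GGCGCC, the GC-rich motif that Smads bind, which reads the same on both strands, and for CAGAC, known as the Smad box, whose reverse complement is GTCTG. Neither motif contains the other. Neither window holds either motif, so all letters are in lower case, and no match says only that these letters are absent from these bases.
Bmp4: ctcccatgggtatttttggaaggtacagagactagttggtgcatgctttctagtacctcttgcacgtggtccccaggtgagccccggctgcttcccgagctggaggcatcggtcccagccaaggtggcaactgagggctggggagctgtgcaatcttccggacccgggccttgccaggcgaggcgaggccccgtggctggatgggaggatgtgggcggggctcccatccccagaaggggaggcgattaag
Nodal: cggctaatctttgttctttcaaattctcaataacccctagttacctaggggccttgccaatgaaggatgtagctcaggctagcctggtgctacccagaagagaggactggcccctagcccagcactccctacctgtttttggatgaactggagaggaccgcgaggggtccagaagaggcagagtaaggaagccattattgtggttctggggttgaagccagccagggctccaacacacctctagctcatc

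Furin, a protease that cleaves precursors of Nodal and of other TGF-beta family ligands, had 5.12, 4.67, 3.93 and 3.59 FPKM in WT1, WT2, KO1 and KO2. Both KO libraries lay below both WT libraries, but the log2 fold change of -0.38 (95% interval -0.82 to 0.07) did not pass. Bmp1, a metalloprotease that cleaves the antagonist Chordin, differed more between WT1 (0.411 FPKM) and WT2 (1.32 FPKM) than between genotypes, with 0.744 FPKM in KO1 and 1.01 FPKM in KO2. Its log2 fold change of 0.02 (95% interval -1.21 to 1.25) became 1.10 without WT2 and -0.62 without WT1.

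The down-regulated receptors were Tgfbr2, Tgfbr1 and Acvr1b, which carry TGF-beta, activin or Nodal signals. The estimates for the member BMP receptors Bmpr1a, Bmpr2 and Acvr1 were smaller, and the difference between the branches was not tested. Bmpr1b, a BMP receptor gene of the further list below, had a larger estimate (log2 fold change 3.31) on few reads. Of the 10 receptor or co-receptor genes, all tested, 3 were down-regulated, or 30%, against 10.7% of all genes tested. The calls of Tgfbr1 and Acvr1b were close to the thresholds, as given below. The other 7 genes did not pass, and the median log2 fold change of the 10 was -0.47. Tgfbr2, the type II receptor that binds TGF-beta itself, was at 1.72 and 1.09 FPKM in WT1 and WT2 against 0.141 and 0.215 in KO1 and KO2. The KO libraries rested on 18 and 31 reads and the WT libraries on 216 and 157, and the groups were well apart. Its log2 fold change was -2.96 (SE 0.44, adjusted p = 0.00519), 7.77-fold lower, and stayed between -3.31 and -2.62 with each library left out.

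The type I receptors of the same branch fell by less. Tgfbr1, which pairs with Tgfbr2, had 9.84, 7.26, 4.69 and 5.18 FPKM in WT1, WT2, KO1 and KO2, and the KO values were the lower pair (log2 fold change -0.79, SE 0.22, adjusted p = 0.0401). Acvr1b, the type I receptor that carries Nodal and activin signals, had 25.1, 21.2, 14.1 and 14.9 FPKM, again without overlap (log2 fold change -0.67, SE 0.18, adjusted p = 0.0383). These calls were close to the thresholds. Without WT1 the log2 fold changes were -0.58 for Tgfbr1 and -0.57 for Acvr1b, under the 1.5-fold limit. They were -0.72 for Tgfbr1 and -0.64 for Acvr1b without KO1, and -0.87 and -0.72 without KO2. Tgfbr1 also missed the threshold by limma-trend on FPKM (adjusted p = 0.0681 and 0.0756 with pseudocounts of 0.1 and 1), and Acvr1b with chromosome medians removed (-0.60, adjusted p = 0.0596).

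Tdgf1, the Nodal co-receptor Cripto, had the highest FPKM of the members in every library, at 401 and 381 in WT1 and WT2 against 267 and 252 in KO1 and KO2. The groups did not overlap, with means of 391 ± 14.7 and 259 ± 10.8 FPKM (SD, n = 2 each), and the log2 fold change of -0.59 (SE 0.18) had an adjusted p of 0.0541. Tdgf1 has a near-identical processed pseudogene on chromosome 16, Tdgf1-ps1 (98.8% identity over 512 bases), which had 1143 and 1197 reads in WT1 and WT2 and 19 and 24 in KO1 and KO2. How reads were split between the copies is uncertain. With all libraries kept, Tdgf1 passed under 2 of the 10 alternatives described below. With the reads of both copies summed, an alternative added once the data had been seen, Tdgf1 also passed (log2 fold change -0.68, SE 0.18, adjusted p = 0.0351).

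Of the BMP receptors, Bmpr1a, the main type I receptor for Bmp4, had 12.5, 8.81, 9.86 and 8.36 FPKM in WT1, WT2, KO1 and KO2, and the groups overlapped (log2 fold change -0.22, 95% interval -0.74 to 0.30). Bmpr2, the type II receptor, was between 1.15 and 1.61 FPKM in every library (log2 fold change 0.23, 95% interval -0.33 to 0.79). Acvr1, a type I receptor for BMP and activin ligands, was 2.30 and 2.34 FPKM in WT and 1.98 and 1.63 FPKM in KO libraries (log2 fold change -0.36, 95% interval -1.04 to 0.33). Changes of up to about these bounds cannot be told from none with 2 libraries per genotype.

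The estimates of the remaining receptors moved with single WT libraries. With all libraries kept, Acvr2a passed under 1 and Tgfbr3 under 2 of the 10 alternatives described below. Acvr2a, a type II receptor for activin and Nodal, had 4.42 and 2.61 FPKM in WT1 and WT2 against 2.22 and 1.87 in KO1 and KO2, and its log2 fold change of -0.78 (adjusted p = 0.116) passed without WT2 (-1.11). It overlaps Orc4 over 446 bases. Acvr2b, its close relative, had 10.6 FPKM in WT1 and 3.38 in WT2, a spread that enclosed both KO values of 8.06 and 6.75. Its log2 fold change of 0.09 became 1.10 without WT1 and -0.51 without WT2. Tgfbr3, the co-receptor betaglycan, was higher in both KO libraries (0.626, 1.21, 1.58 and 2.23 FPKM in WT1, WT2, KO1 and KO2). Its log2 fold change of 1.05 had an adjusted p of 0.0998, and the estimate was 0.63 without WT1 and 1.61 without WT2.

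Smad7 was the Smad that fell, and the signal-carrying Smads did not pass the test. Smad7, the inhibitory Smad that blocks type I receptors and is itself induced by the pathway, had 22.2 and 23.7 FPKM in WT1 and WT2 against 5.01 and 4.91 in KO1 and KO2. The libraries of each genotype nearly coincided. The mean fell from 22.9 ± 1.01 to 4.96 ± 0.069 FPKM (SD, n = 2 each), 4.61-fold lower (log2 fold change -2.21, SE 0.18, adjusted p = 0.000704), and it stayed between -2.28 and -2.16 with each library left out. Smad6, the inhibitory Smad of the BMP branch, was at 2.64, 2.21, 3.08 and 2.80 FPKM in WT1, WT2, KO1 and KO2 (log2 fold change 0.28, 95% interval -0.44 to 1.00).

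Smad1 and Smad5, the BMP Smads, were both lower in both KO libraries without passing. Smad1 had 4.43, 4.49, 2.80 and 3.15 FPKM in WT1, WT2, KO1 and KO2 (log2 fold change -0.58, SE 0.22, adjusted p = 0.0956). It lies on chromosome 8, whose genes had a median log2 difference from WT of 0.52 in KO1 and 0.53 in KO2, and with the median of each chromosome removed Smad1 was at -1.10 (adjusted p = 0.0153). With chromosome medians kept, Smad1 was at -0.62 without WT1 and -0.57 without WT2. Smad5 had 7.90, 7.20, 5.09 and 6.29 FPKM (log2 fold change -0.40, 95% interval -0.87 to 0.06).

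Smad2 and Smad3, which carry Nodal, activin and TGF-beta signals, were at 6.17 to 7.17 FPKM and 2.84 to 3.56 FPKM over the libraries. Smad2 overlapped between genotypes, with a log2 fold change of 0.00 (95% interval -0.44 to 0.44), and Smad3 was slightly higher in both KO libraries (0.28, 95% interval -0.26 to 0.83). Smad4, the partner shared by both branches, was at 22.9, 20.4, 18.6 and 19.2 FPKM in WT1, WT2, KO1 and KO2 (log2 fold change -0.19, 95% interval -0.60 to 0.22). The intervals of Smad2 and Smad4 leave out the size of the Smad7 change.

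**Figure D3:**
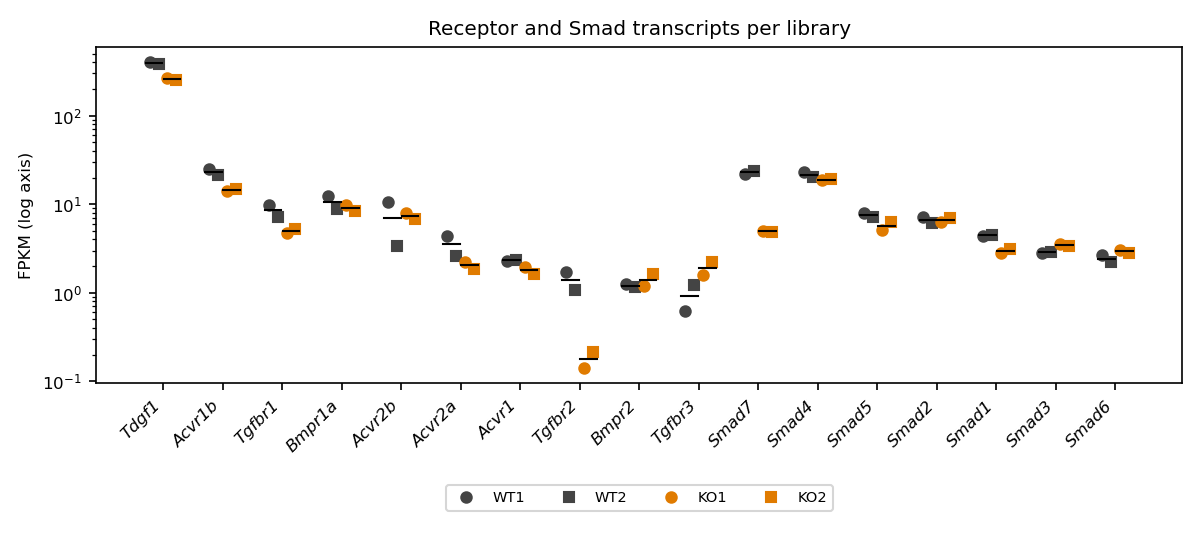
FPKM (log axis) of receptor, co-receptor and Smad genes in WT1, WT2, KO1 and KO2; each symbol is 1 library and each line the mean of a genotype. Tgfbr2 and Smad7 were separated most widely, at 1.09 FPKM or more against 0.215 or less and at 22.2 or more against 5.01 or less, whereas Bmpr1a, Bmpr2 and Smad2 overlapped.

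Chordin was the down-regulated antagonist. Chrd encodes a secreted protein that binds BMPs and keeps them from their receptors. It was at 2.39 and 2.64 FPKM in WT1 and WT2 against 1.13 and 1.17 in KO1 and KO2, with close agreement within each genotype. The log2 fold change was -1.13 (SE 0.28, adjusted p = 0.0279), -1.10 without KO1 and -1.16 without KO2. The adjusted p was 0.0581 by limma-trend on FPKM with a pseudocount of 0.1. Chrd overlaps Thpo, which had 158, 171, 83 and 76 reads in WT1, WT2, KO1 and KO2, so part of its reads is uncertain.

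The other antagonists tested were Nog, Fst, Bambi and Skil. Nog, another secreted BMP trap, ranged from 0.384 FPKM in WT1 to 1.54 in WT2 and enclosed both KO values of 0.794 and 1.21 (log2 fold change 0.05, 95% interval -1.54 to 1.64). It lies on chromosome 11, whose genes had a median log2 difference from WT of 0.51 in KO1 and 0.49 in KO2, and with chromosome medians removed Nog was at -0.45 and again did not pass. Fst, which encodes the activin trap follistatin, was 0.312 and 0.148 FPKM in WT1 and WT2 and 0.517 and 0.569 FPKM in KO1 and KO2. Its log2 fold change of 1.25 had an adjusted p of 0.135, and the estimate was 1.84 without WT1 and 0.80 without WT2. Bambi, a pseudoreceptor without a kinase domain, overlapped between genotypes (1.79, 2.48, 1.82 and 1.60 FPKM, log2 fold change -0.32), and so did Skil, a nuclear co-repressor of Smads (11, 7.37, 12 and 8.1 FPKM, log2 fold change 0.14, 95% interval -0.48 to 0.75).

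Among the 6 targets, all tested, Id3 rose, Id2 fell and the other 4 did not pass. The share called was 33.3%, against 21.7% of all genes tested. The median log2 fold change of -1.12 includes Lefty1 and Lefty2, whose estimates turned to 0.16 and 0.38 without WT1. The Id genes encode helix-loop-helix proteins without a DNA-binding domain that hold back differentiation factors, and they are the classical BMP targets. Id2 was at 24.0 and 15.6 FPKM in WT1 and WT2 against 7.34 and 4.98 in KO1 and KO2, and both KO libraries lay below both WT libraries (log2 fold change -1.68, SE 0.29, adjusted p = 0.00882). The log2 fold change was -1.99 without KO1 and -1.44 without KO2. Id3 moved the other way, at 7.63 and 11.8 FPKM in WT1 and WT2 against 21.2 and 24.3 in KO1 and KO2 (log2 fold change 1.23, SE 0.26, adjusted p = 0.0167). Its log2 fold change was 1.32 without KO1 and 1.12 without KO2.

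Id1 had the highest FPKM of the Id genes in every library, at 104 and 198 in WT1 and WT2 against 73.6 and 86.3 in KO1 and KO2. The KO values were the lowest, but the WT libraries differed from each other by more than WT1 differed from either KO library. The log2 fold change of -0.91 (SE 0.30) had an adjusted p of 0.0634 in edgeR and 0.0174 in DESeq2, and it was -1.33 without WT1 and -0.38 without WT2. Id4 was at 2.96, 1.84, 1.60 and 1.19 FPKM in WT1, WT2, KO1 and KO2 (log2 fold change -0.78, adjusted p = 0.177). Its estimate was -0.43 without WT1 and -1.08 without WT2. By the estimates, 3 of the 4 Id genes were lower in Npac KO cells, of which 1 passed, and Id3 alone was higher.

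The 250 bases before the start of Id2 and Id3 are shown because these genes of 1 family, both known BMP targets, moved in opposite directions. They are from RefSeq on GRCm38.p6, 5′ to 3′ on the strand of each gene, Id2 from chr12:25096093-25096342 (minus strand) and Id3 from chr4:136143572-136143821 (plus strand). Capitals mark GGCGCC, found once in the Id2 window, and the Smad box on either strand, found at 2 places in the Id3 window.
Id2: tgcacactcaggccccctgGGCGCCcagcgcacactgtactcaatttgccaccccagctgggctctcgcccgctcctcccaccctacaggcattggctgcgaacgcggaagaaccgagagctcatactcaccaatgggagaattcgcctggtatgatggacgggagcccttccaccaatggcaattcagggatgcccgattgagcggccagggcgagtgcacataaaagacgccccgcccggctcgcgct
Id3: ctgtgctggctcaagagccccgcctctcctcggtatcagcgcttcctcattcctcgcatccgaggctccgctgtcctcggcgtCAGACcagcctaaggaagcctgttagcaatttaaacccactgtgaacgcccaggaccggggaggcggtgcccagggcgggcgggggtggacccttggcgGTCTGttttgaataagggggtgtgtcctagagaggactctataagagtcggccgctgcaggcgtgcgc
Of the members, 27 had an entry in the promoter table, with 31 promoters. GGCGCC was present in 9 of these 31 (29.0%) and in 9.59% of all 32851 promoters, and the Smad box in 13 of 31 (41.9%) and in 42.2% of all. The member promoters were also richer in G and C, with a median of 66.4% against 52.4% for all, and the part of base composition in the GGCGCC share was not tested. The genes with GGCGCC were Bmpr1a, Bmpr2, Chrd, Furin, Grem1, Id2, Id4, Smad5 and Tgfbr1. Of these, Chrd, Id2 and Tgfbr1 were down-regulated and Grem1 was not tested. The Smad box was in 12 member genes, of which Tgfb2, Tgfbr1 and Tgfbr2 were down-regulated and Id3 was up-regulated. Among the 39 tested members 23.1% were down-regulated and 5.13% up-regulated, against 10.7% and 11.0% of all genes tested. A link between either motif and direction was not tested. A match of letters is a description and not a bound site.

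Lefty1 and Lefty2, secreted inhibitors of Nodal that Nodal signalling induces, differed by more within genotypes than between them. Lefty1 was at 22.8 and 3.91 FPKM in WT1 and WT2 against 6.96 and 1.97 in KO1 and KO2, and Lefty2 at 33.9, 5.93, 12 and 3.8 FPKM. The groups overlapped for both genes, since KO1 lay above WT2. The log2 fold changes of -1.58 (95% interval -3.46 to 0.29) and -1.33 (95% interval -3.10 to 0.44) did not pass. They turned to 0.16 and 0.38 without WT1, and were -2.36 and -2.11 without WT2, so the direction of the estimates changed when WT1 was left out. The transcripts of the pair share 91.4% identity over 1157 bases, so the split of reads between them is uncertain, and Lefty2 also overlaps an antisense gene. Their sum, also an alternative added after the data were seen, gave -1.41 (adjusted p = 0.222).

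**Figure D4:**
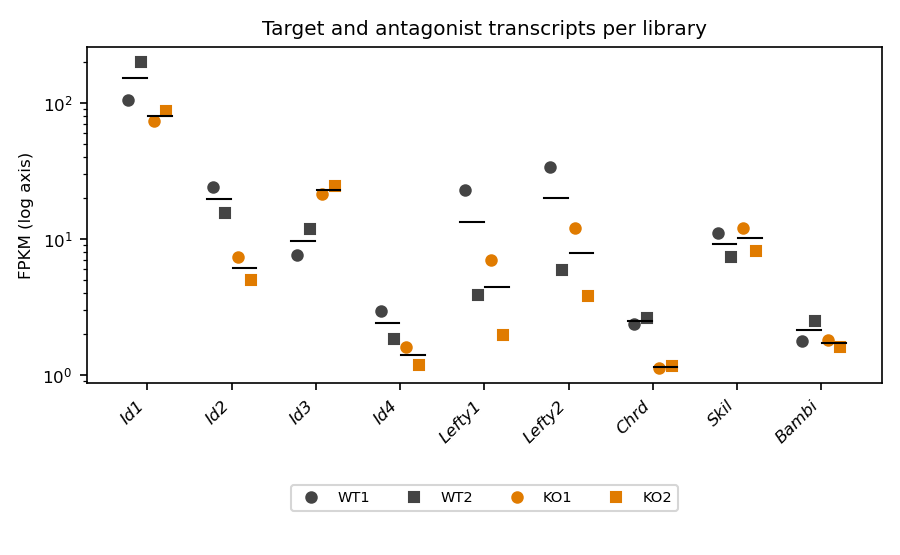
FPKM (log axis) of 6 target genes and of the antagonists Chrd, Skil and Bambi in WT1, WT2, KO1 and KO2; each symbol is 1 library and each line the mean of a genotype. Id2 and Chrd were lower and Id3 higher in both KO libraries, while the WT1 and WT2 symbols of Lefty1 (22.8 and 3.91 FPKM) and Lefty2 (33.9 and 5.93 FPKM) enclose the KO1 symbols.

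Further genes of the same pathways, taken from a list of 79 written from pathway knowledge, gave 9 calls. Of the 54 that were tested, 4 were up-regulated and 5 were down-regulated, which is 16.7% against 21.7% of all genes, and the median log2 fold change was 0.03. The genes of this list that were not tested numbered 25. The latent TGF-beta binding proteins Ltbp4 and Ltbp3, which store TGF-beta in the matrix, were among the down-regulated genes. Ltbp4 had 70.2, 54.8, 21.0 and 18.2 FPKM in WT1, WT2, KO1 and KO2 (log2 fold change -1.67, SE 0.21, adjusted p = 0.0029), and Ltbp3 had 3.56, 4.0, 1.06 and 1.58 FPKM (log2 fold change -1.51, adjusted p = 0.00934). Neither gene's groups overlapped. The number of calls in this list varied with the library left out, as given below.

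Pcsk6, a protease related to Furin that also processes Nodal, was at 13.2, 12.1, 7.91 and 7.14 FPKM in WT1, WT2, KO1 and KO2 (log2 fold change -0.74, adjusted p = 0.0273). Gdf15, a distant family member known as a stress-induced ligand, was at 10.8, 8.49, 2.32 and 2.88 FPKM (log2 fold change -1.88, adjusted p = 0.00765). Both genes were lower in both KO libraries. Smurf2, a ubiquitin ligase that acts with Smad7 on receptors, was at 10.5, 8.33, 16.7 and 16.3 FPKM (log2 fold change 0.81, adjusted p = 0.0229). It lies on chromosome 11, as Nog does, and with chromosome medians removed Smurf2 was at 0.31 and no longer passed.

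Further calls of the list had few reads, and these genes are named after their values were seen. The type I BMP receptor gene Bmpr1b had 1, 5, 40 and 20 reads in WT1, WT2, KO1 and KO2 (adjusted p = 0.025), and Gsc, a homeobox target of Nodal, had 1, 7, 29 and 42 (adjusted p = 0.0239). Inhbe, an activin subunit gene, had 108, 45, 9 and 21 reads (adjusted p = 0.037). Bmpr1b and Gsc were higher and Inhbe lower in both KO libraries. Of the 9 other targets tested, 22.2% were called, against 21.7% of all genes. KO libraries lay above WT libraries for 7 of the 9, against 33.2% of all genes. Among the 6 member targets KO libraries lay above WT libraries for 1 and below them for 3.

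**Figure D5:**
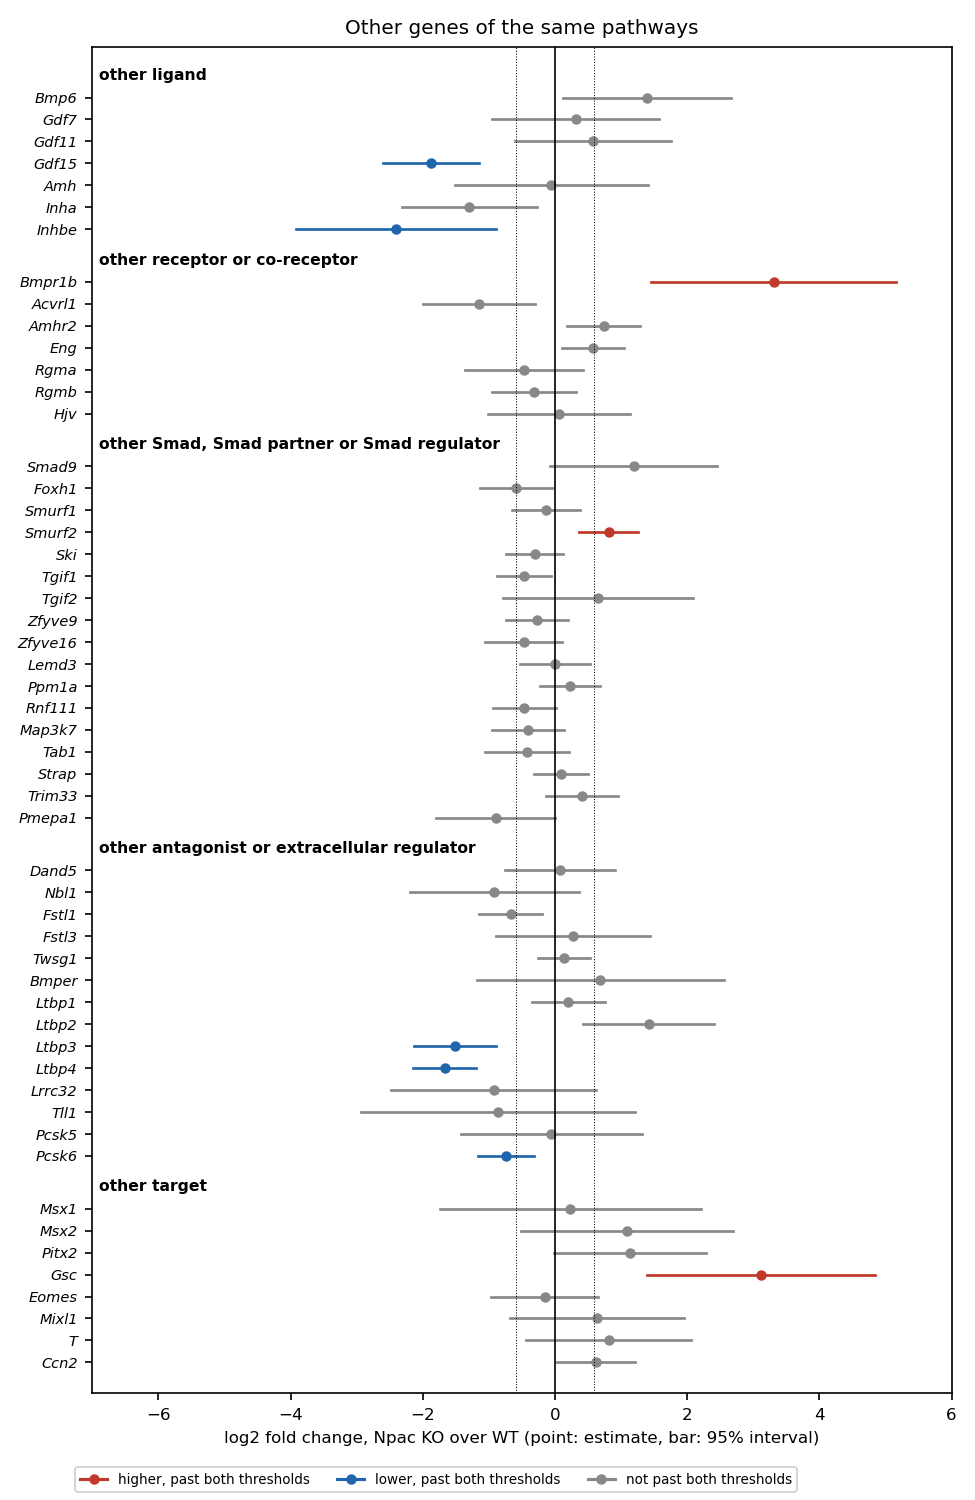
Log2 fold change of Npac KO over WT for the tested genes of the further pathway list that are reported here, grouped by role; each point is the estimate from edgeR, each bar its 95% interval, and the dotted lines mark a 1.5-fold change. Ltbp3, Ltbp4, Pcsk6, Gdf15 and Inhbe are coloured as lower and Bmpr1b, Smurf2 and Gsc as higher, and the other genes are grey.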

How the data were processed

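RNA-seq counts of 4 E14 libraries were analysed. The authors deposited raw read counts per gene, not normalized, and FPKM values computed from the same counts, gene length and a scaled library size. The submitters' processing notes list CASAVA, HISAT2 2.0.5, featureCounts 1.5.0-p3 and mm10, but the coordinates in the files equal those of the GENCODE annotation of GRCm38 for only 1472 of 52073 shared genes, so file coordinates are given without a build and promoter coordinates are on GRCm38.p6. Strand use is not given in the sources used here.

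Counts were TMM-normalized, filtered with filterByExpr and tested with the two-sided quasi-likelihood test of edgeR 4.0.16 in R 4.3.3, WT1 and WT2 against KO1 and KO2, over 18157 genes. Calls needed more than a 1.5-fold change and p below 0.05 after Benjamini-Hochberg adjustment. Levels are FPKM, and log2 fold changes, SEs and 95% intervals are from the fit. The floor was 3 reads per library. Intervals for reads and floors cover counting error only. The precision is limited by 2 libraries per genotype. The log2 CPM values of all tested genes correlated at 0.961 in the WT pair, 0.979 in the KO pair and 0.873 to 0.894 between genotypes.

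The members and lists were chosen with earlier results of these data known. All members are named, and genes of the further list are named if called with a mean count of at least 100. Bmpr1b, Gsc and Inhbe, called with lower mean counts, are named in addition, after their values were seen. Alternatives were DESeq2 1.42.0, other scalings and filters, a replicate block, limma-trend (limma 3.58.1) on log2 FPKM with pseudocounts of 0.1 and 1, removal of chromosome medians, and leaving out each library. Leaving out a library leaves 1 in its genotype, so the spread then comes from the pair of the other genotype alone. Calls gained or lost that way therefore do not describe single genes. Similar transcripts were found with blastn 2.17.0+ at 90% identity over 300 bases. Protein sequences were not used here. A result of the further list is counted but not reported here.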

Additional observations from a re-analysis of the deposited data

How the results depend on the processing

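Bmp4, Inhbb, Tgfbr2 and Smad7 passed under all 10 alternatives other than leaving out a library and with any library left out, and Nodal, Id2 and Id3 passed under those 10. Of 389 values over the 39 tested members and these alternatives, 12 changed sign, none of a called gene, 6 lost and 15 gained a call. Of 156 values with a library left out, 17 changed sign, 15 lost and 13 gained a call. Beside 2 up-regulated and 9 down-regulated members, 4 and 12 were called with no filter on low counts, and over the library left out the counts lay between 0 and 5 and between 4 and 14. For the further list, with 4 and 5 in the report, no filter gave 9 down-regulated genes, and the counts lay between 0 and 10 and between 1 and 12 with a library left out. Over all genes, 642 up-regulated and 606 down-regulated were called without KO1, 671 and 681 without KO2, 2686 and 2801 without WT1 and 3477 and 3311 without WT2, against 1999 and 1946 with all. The cause was not tested. With no filter on low counts, 2862 up-regulated and 2799 down-regulated genes were called among 32685 tested.

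The labels number the libraries 1 and 2 in both genotypes but do not say that a number marks a batch. The WT1 to WT2 and KO1 to KO2 differences correlated at 0.308 across genes, which are not independent replicates. With the replicate block, 4 members were up-regulated and 14 down-regulated, 8 and 10 genes of the further list, and 3128 and 2994 of all genes. Lefty1 (-1.39) and Lefty2 (-1.09) were then called. Depth limits Tgfb2, Bmp2, Inhba and Grem1, and the smallest log2 change called among the members was that of Acvr1b (-0.67).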

Other observations

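Several members differed in the same direction between WT1 and WT2 and between KO1 and KO2. The log2 difference of WT2 from WT1 and of KO2 from KO1 was -2.54 and -1.79 for Lefty1, -2.51 and -1.63 for Lefty2, -1.49 and -0.67 for Gdf3 and -0.57 and -0.55 for Skil. It was 1.95 and 0.61 for Nog, 1.68 and 0.46 for Bmp1 and 0.93 and 0.25 for Id1. These genes were chosen after their values were seen. Over the 39 tested members the differences had the same sign in 22 and the opposite sign in 17. For Nodal the differences were -0.39 and 0.13, and for the receptor gene Tgfbr2 -0.65 and 0.61.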
